A study of Mus musculus with 12 samples.

Results

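Transcripts of 10 nuclear genes that copy, package, transcribe or feed mitochondrial DNA (mtDNA), or set its amount, were measured in mouse spinal cord. The genes were Polg, Polg2, Twnk, Tfam, Ssbp1, Polrmt, Tk2, Dguok, Rrm2b and Ppargc1a. They were taken as a list by mouse symbol, and each matched 1 Ensembl gene among the 49548 genes counted. RNA came from 8 MFN2 mice and 4 WT mice, all 30 days old and untreated. MFN2 mice are MitoCharc1 animals, a model of Charcot-Marie-Tooth disease type 2A (CMT2A) labelled Tg(Eno2-MFN2*R94Q)L51Ugfm/J on a B6;D2 background. They carry the human MFN2 transgene with the R94Q substitution behind the neuron-specific rat Eno2 promoter, in addition to their own Mfn2. The label of the WT mice is C57BL/6, while the study's methods call them littermates, so that a difference in strain background between the groups cannot be told apart from the transgene. All libraries are labelled spinal cord, a tissue that mixes neurons, glia and vessels, and in such bulk RNA fewer cells of a type and less RNA per cell cannot be told apart.

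Mitochondria hold their own small circular genome, which encodes core subunits of the respiratory chain, but every protein that replicates or transcribes it is imported from the cytosol. Polymerase gamma (Polg with its accessory subunit Polg2) extends DNA behind the helicase Twinkle (Twnk), while Ssbp1 coats the displaced strand and Tfam both packs the genome into nucleoids and opens its promoters for the RNA polymerase Polrmt. Cells that no longer divide, such as neurons, take their mitochondrial deoxynucleotides largely from the salvage kinases Tk2 and Dguok and from the p53-inducible ribonucleotide reductase subunit Rrm2b, and the coactivator PGC-1alpha (Ppargc1a) raises the expression of many nuclear genes of mitochondria. Mfn2 itself fuses outer mitochondrial membranes, and mitochondrial fusion is known to help keep mtDNA intact.

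All 10 genes are protein-coding, and positions are those of GRCm38. On the minus strand lie Polg (chr7:79446231-79466362), Polg2 (chr11:106768253-106779537), Tfam (chr10:71225464-71238280), Polrmt (chr10:79736123-79746581), Tk2 (chr8:104226685-104248558), Dguok (chr6:83480217-83506969), Rrm2b (chr15:37923952-37961318) and Ppargc1a (chr5:51454250-51567726). On the plus strand lie Twnk (chr19:45005663-45012762) and Ssbp1 (chr6:40471352-40484700). Exons of 4 of them overlap exons of a gene on the other strand. The overlap covered 12.63% of the exon bases of Twnk (with Mrpl43), 8.57% of Polg (with Fanci), 8.04% of Rrm2b (with Gm49085, not analysed here) and 3.03% of Polg2 (with Milr1). Since the strand setting of the counting is not given in the sources used here, reads from such a pair cannot be told apart within the overlap.

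RefSeq promoter windows of GRCm38.p6, 250 bases before to 50 bases after a transcript start, were found for 9 of the 10 genes, with 2 windows for Twnk. These were searched on both strands for short motifs of factors known to act on mitochondrial genes. The GABPA (NRF-2) motif CCGGAAGT was found in windows of 3 of the 9 genes and in 3.89% of all 32851 windows, the NRF1 motif GCATGCGC in 1 gene and 2.71% of windows, and the cyclic AMP response element TGACGTCA in 1 gene and 1.79% of windows. The YY1 motif AAGATGGCG and the estrogen-related receptor (ERR) motif TCAAGGTCA were in 0 of these windows, and in 1.40% and 0.423% of all windows. No match of a motif overlapped a match of another. All 5 sites are shown with the bases around them, since these are the matches found near the starts of genes of this list, read on the strand of the gene with the motif in capitals. The GABPA motif was in more than 1 gene, and the others were in 1 gene each.
Polg, GABPA motif at chr7:79466304-79466311, in an annotated exon: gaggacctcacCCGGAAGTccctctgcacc
Tfam, GABPA motif at chr10:71238084-71238091, in an annotated exon: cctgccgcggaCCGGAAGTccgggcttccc
Twnk, GABPA motif on the other strand at chr19:45006447-45006454, outside annotated exons: actaaccggtgACTTCCGGttccggggttg
Polrmt, NRF1 motif on the other strand at chr10:79746707-79746714, outside annotated exons: agagtatttctGCGCATGCtctcttgccgc
Dguok, cyclic AMP response element at chr6:83506966-83506973, across the start: tgacggccctcTGACGTCAaaggtgcgctg
The 10 windows held between 46.67% (the first start of Twnk) and 70.33% (Tfam) G and C, against a median of 52.67% over all windows, and those of Polrmt, Ppargc1a and the first start of Twnk lay below that median. A match describes the letters in a window and does not show that a factor binds there. Across the 12 libraries, log2 CPM of the 3 genes with the GABPA motif correlated with r = 0.22 (Polg with Tfam), -0.15 (Polg with Twnk) and -0.055 (Twnk with Tfam). Over the 11 libraries without MFN2 library 43, described below, the values were 0.43, -0.16 and 0.18 in the same order.

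Total counts ran from 19359454 to 26738930 in MFN2 mice and from 19453238 to 23564568 in WT mice. The libraries carry the numbers 41 to 47 and 72 to 76. All 4 WT libraries (44 to 47) and 3 of the MFN2 libraries (41 to 43) are in the first run of numbers, and 5 MFN2 libraries (72 to 76) are in the second. What the numbers mark is not given in the sources used here. The MFN2 mice were therefore compared with WT as 8 animals and as each run by itself, and the runs of MFN2 mice were compared with each other. In the second run genotype and run cannot be told apart, and all comparisons with WT share the same 4 WT libraries.

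MFN2 library 43 stood apart from the other 11. A list of 8 genes of forebrain neurons, led by Camk2a, summed to 4685 CPM (reads counted on a gene relative to the size of the library) there and to between 109 and 207 CPM in the other libraries, and all 8 genes were highest in library 43. A list of 11 Hox genes (the caudal Hox list), which mark levels of the cord from cervical to lumbar and are led by Hoxb8, summed to 45.9 CPM against 269 to 359 CPM elsewhere, with all 11 lowest in library 43. The 6 motor neuron genes, led by Prph, summed to 35.5 CPM against 154 to 370 CPM. All 6 were lowest there, and none was at 0. By Dixon's gap test at the 95% level among the 8 MFN2 values, library 43 was the outlier for Camk2a, Nrgn, Slc17a7, Ddn, Icam5, Tbr1, Neurod2 and Neurod6 of the forebrain list, and for Hoxb5, Hoxc6, Hoxb8, Hoxa9, Hoxc9, Hoxd9 and Hoxa10. It was also the outlier for the motor neuron transporters Slc5a7 and Slc18a3 (lowest), and for Syt1 and Rbfox3 of the neuronal list and Slc1a3 of the astrocyte list (highest). These 2 lists were not high there as a whole. Of the 6 neuronal genes, 2 were highest and 3 lowest in library 43, and of the 6 astrocyte genes, 2 were highest and 4 lowest. The other 11 libraries held the caudal Hox and motor neuron genes that spinal cord should. Library 43 goes against its tissue label by these lists, and results are given with and without it.

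**Figure D1:**
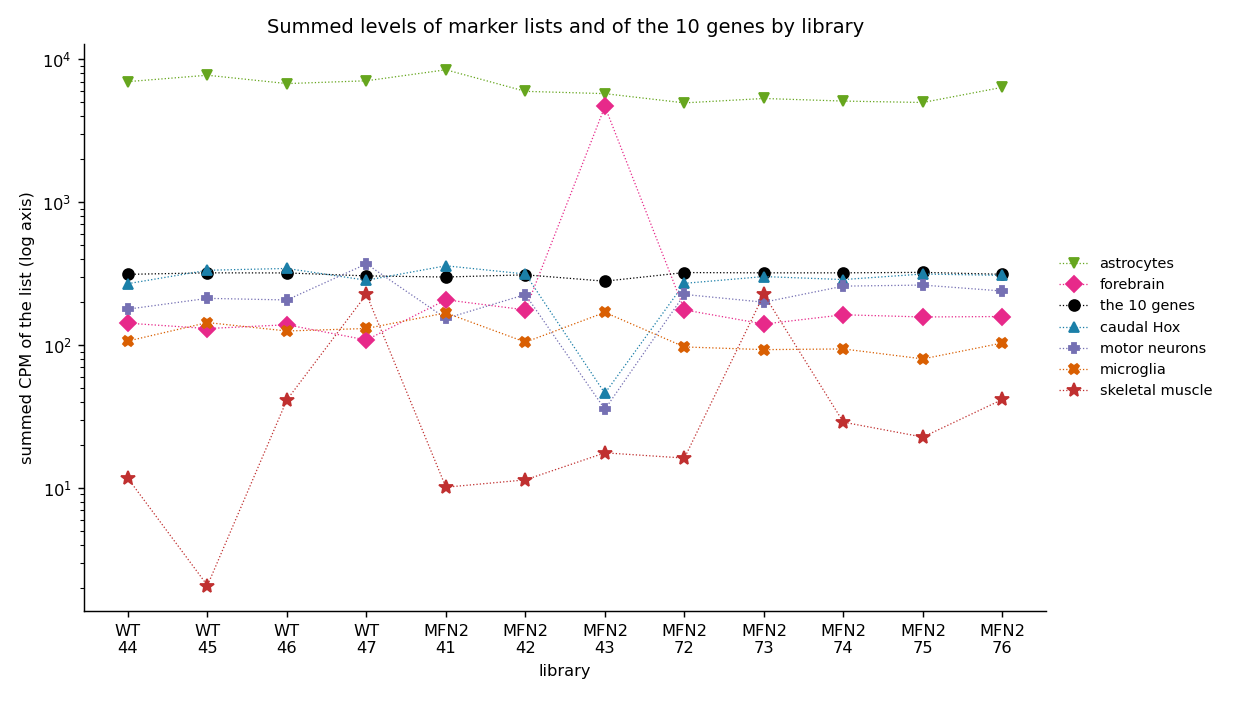
Summed CPM (log axis) of marker lists and of the 10 mtDNA genes in each of the 12 libraries, with WT first and dotted lines only to guide the eye. Library 43 is alone in its high forebrain sum (4685 CPM) and low caudal Hox sum (45.9 CPM), and skeletal muscle genes peak at 227 CPM in WT library 47 and 226 CPM in MFN2 library 73.

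Other lists differed in single libraries or between groups of libraries. The 6 skeletal muscle genes, led by Myh4, summed to 227 CPM in WT library 47 and 226 CPM in MFN2 library 73, and to between 2.07 and 41.6 CPM elsewhere, with 1 of them at 0 in WT library 45. Library 73 also held the highest sums of 6 Schwann cell genes (437 CPM against 139 to 347 CPM) and of 5 blood genes (333 CPM against 68.1 to 202 CPM). The 6 astrocyte genes, led by Slc1a2, summed to 5355 ± 591 CPM in MFN2 libraries 72 to 76 (SD, n = 5) and 7151 ± 421 CPM in WT (SD, n = 4), without overlap. The 6 microglia genes, led by Csf1r, likewise summed to 93.5 ± 8.58 CPM and 127 ± 15.3 CPM. In MFN2 libraries 41 to 43 the astrocyte sums were 8465, 5978 and 5761 CPM, those of 42 and 43 being below all WT libraries too (lowest 6774 CPM). The microglia sums there were 168, 105 and 169 CPM, with library 42 below all WT libraries (lowest 107 CPM). The part of these lists in the values of the mtDNA genes was not tested. Sums of 6 pan-neuronal genes ran from 2838 to 3624 CPM, and those of 6 endothelial genes from 116 to 187 CPM. The 5 proliferation genes ran from 20.2 CPM in WT library 45 to 110 CPM in WT library 44.

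The 10 genes were all detected in every library. Together they took 311 ± 14.7 CPM in MFN2 (SD, n = 8) and 315 ± 7.24 CPM in WT (SD, n = 4). The lowest sum, 280 CPM, was that of library 43, and the highest, 323 CPM, lay in libraries 72 to 76. Per kilobase of exon (RPKM, CPM divided by the summed length of all annotated exons), Ppargc1a was the most abundant, at 12.6 ± 1.32 RPKM over all 12 libraries (SD). It was above the range of every other gene of the list. Tk2 (8.31 ± 0.308 RPKM), Tfam (8.05 ± 0.880) and Polrmt (6.89 ± 0.589) followed, and these neighbours overlapped in their ranges. Polg (4.97 ± 0.312) and Rrm2b (4.17 ± 0.388) formed the next level and overlapped each other but neither Polrmt above nor Twnk below. Twnk (2.76 ± 0.304), Ssbp1 (2.05 ± 0.235) and Dguok (1.97 ± 0.186) again overlapped from neighbour to neighbour. Polg2, the accessory subunit, was lowest at 0.695 ± 0.113 RPKM, below the range of every other gene of the list.

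**Figure D2:**
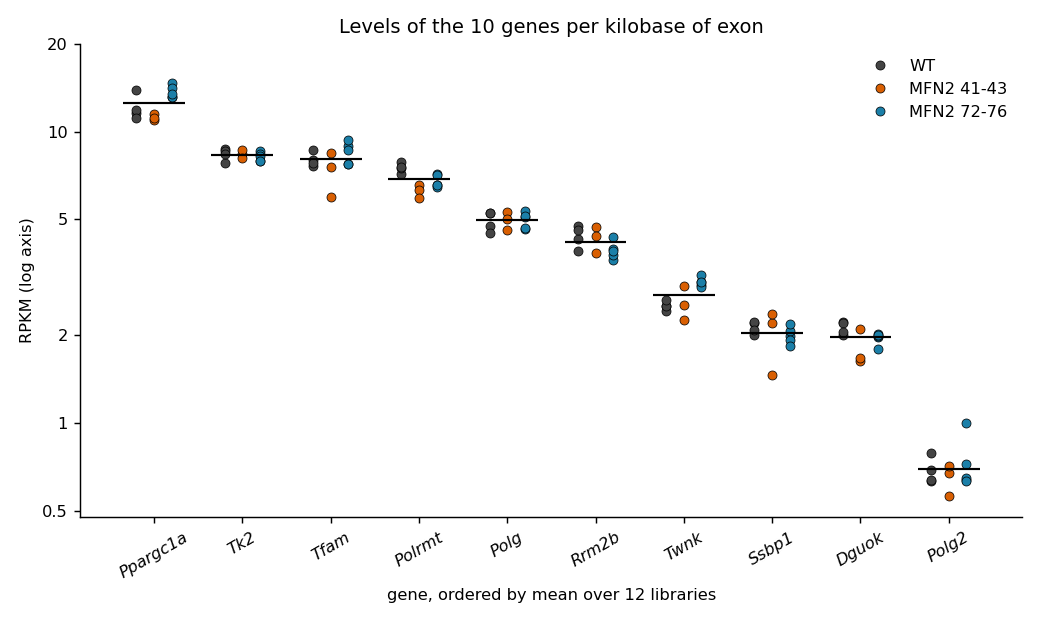
RPKM of the 10 genes on a log axis, with 1 point per library coloured by group and a bar at the mean of the 12 libraries. Ppargc1a is highest at 12.6 RPKM and Polg2 lowest at 0.695 RPKM.

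Between genotypes, 0 of the 10 genes passed an FDR of 0.05 by edgeR's quasi-likelihood test, and 0 of all 15942 genes tested did (0%). DESeq2 called 200 of all genes and limma-voom 0, and both called 0 of the 10. At an unadjusted p under 0.05, 1 of the 10 was lower and 0 higher, and among all genes 2386 passed that level, 7.57% of those tested being lower. The log2 fold changes of the 10 genes lay between -0.19 (Polrmt) and 0.18 (Twnk), 5 above and 5 below 0. Their median was -0.0048, beside 0.0038 over all genes tested. Every 95% interval of a log2 fold change lay within -0.35 and 0.39.

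**Figure D3:**
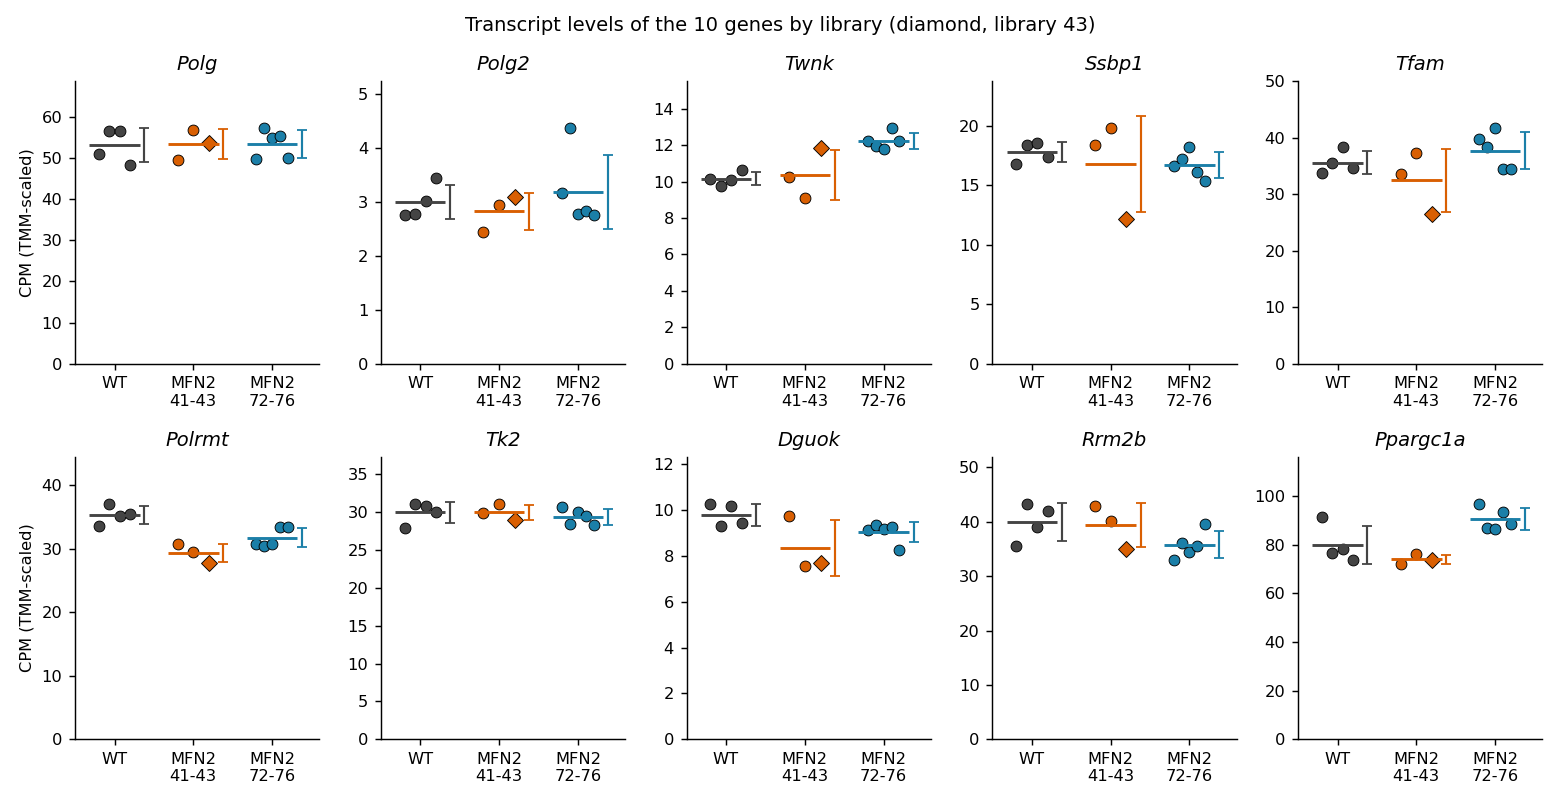
CPM of each of the 10 genes in the 12 libraries (1 point per library, library 43 as a diamond), with a horizontal line at the mean of each group and the SD beside it. All vertical axes start at 0. Polrmt is lower in all 8 MFN2 libraries than in WT, Twnk and Ppargc1a are higher in libraries 72 to 76 than in 41 to 42, and Tfam and Ssbp1 are lowest in library 43. Without library 43, 2800 of the 15509 genes tested between the MFN2 runs were higher in libraries 72 to 76 without overlap.

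Polrmt, the RNA polymerase that makes mitochondrial transcripts and the primers of mtDNA replication, was the gene of the list with the smallest p-value between genotypes. It measured 33.5, 37.0, 35.1 and 35.4 CPM in WT libraries 44 to 47. In MFN2 libraries 41 to 43 it measured 30.6, 29.4 and 27.7 CPM, and in 72 to 76 it measured 30.7, 30.4, 30.8, 33.4 and 33.4 CPM. All 8 MFN2 libraries were thus below all 4 WT libraries, but the gap was small, from 33.41 CPM in MFN2 library 75 to 33.48 CPM in WT library 44. Counts of 591 to 863 put the counting error of a library at 3.40% to 4.11%, more than this gap. When libraries were scaled by total count alone, the genotypes overlapped, with MFN2 library 75 at 34.1 CPM and WT library 44 at 33.6 CPM. The means were 30.8 ± 1.89 CPM (SD, n = 8) and 35.2 ± 1.45 CPM (SD, n = 4), a log2 fold change of -0.19 (SE 0.061, edgeR adjusted p = 0.269). Across the alternatives the fold change stayed between -0.27 and -0.14 and the adjusted p between 0.104 and 0.554, so that the difference did not pass correction under any of the 18 alternatives run. Genes lower in all MFN2 than in all WT libraries made up 1.07% of the genes tested, and with a list of 10 genes 1 such gene is not a result about the list.

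Each run of MFN2 mice was also below WT in Polrmt, measured against the same WT libraries. Within the first run the log2 fold change was -0.25 (SE 0.076, edgeR adjusted p = 0.622), with 3 of 3 MFN2 libraries below WT. Genes lower in all 3 made up 4.29% of the genes tested there, and 1.95% were lower at an unadjusted p under 0.05. Without library 43 the value was -0.22 (adjusted p = 0.862). In the second run it was -0.15 (SE 0.056, adjusted p = 0.0637), with 5 of 5 libraries below WT, as were 10.3% of the genes tested. Leaving out WT library 44, the lowest of the WT values, brought the second run past the threshold (adjusted p = 0.0420). The MFN2 runs themselves differed in Polrmt by 0.094 on the log2 scale (95% interval -0.057 to 0.25).

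Twnk, the helicase of the mtDNA replication fork, was the only gene of the list that passed the threshold in any of the 4 comparisons. WT libraries 44 to 47 held 10.1, 9.75, 10.1 and 10.6 CPM. MFN2 libraries 72 to 76 held 12.2, 11.9, 11.8, 12.9 and 12.2 CPM, all above all WT values, while libraries 41 to 43 held 10.2, 9.09 and 11.8 CPM. The second run was higher than WT by 0.27 on the log2 scale (SE 0.072, 95% interval 0.11 to 0.42, edgeR adjusted p = 0.0190). In that comparison 11.1% of the genes tested were higher past the same threshold and 9.5% were higher without overlap, so that 1 of 10 genes is near the background. Scaling by total count moved the calls of that comparison from 1746 higher and 2000 lower genes to 2822 higher and 1345 lower, and Twnk stayed higher (0.34, adjusted p = 0.00691). The call was lost without a filter on low counts (adjusted p = 0.142), without WT library 45 (0.0566) and without WT library 46 (0.0504), and held in 10 of 13 alternatives.

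Within the first run Twnk did not separate the genotypes. The log2 fold change of libraries 41 to 43 against WT was 0.048 (SE 0.12, adjusted p = 0.893), and without library 43, the highest of the 3, it turned to -0.064 (adjusted p = 0.972). Over all 8 MFN2 mice the value was 0.18 (SE 0.094, adjusted p = 0.366), with 6 of 8 above all WT libraries. With the run as a covariate it was 0.030 (adjusted p = 0.893). Between the MFN2 runs it was 0.21 (adjusted p = 0.267), and 0.33 without library 43 (adjusted p = 0.0519). Mrpl43, a protein of the mitochondrial ribosome whose exons overlap those of Twnk on the other strand, had the opposite sign, at 28.5 ± 1.90 CPM in libraries 72 to 76 and 30.5 ± 3.04 CPM in WT (log2 fold change -0.10, adjusted p = 0.357). Twnk rested on 204 to 334 counts per library, a counting error of 5.47% to 7.0%.

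The polymerase subunits showed no such order. Polg, the catalytic subunit, ran from 48.4 to 56.7 CPM in WT and from 49.6 through a median of 54.3 to 57.3 CPM in MFN2, so that the groups overlapped throughout. Between genotypes Polg differed by 0.0072 on the log2 scale (95% interval -0.13 to 0.15), and the value lay between -0.021 and 0.022 in the other comparisons. Fanci, which overlaps its exons, was itself low at 1.15 ± 0.314 CPM. Polg2 measured 2.75, 2.78, 3.01 and 3.44 CPM in WT and from 2.44 through 2.88 to 4.36 CPM in MFN2. Its highest values were those of MFN2 library 73 and WT library 47, the 2 libraries with the most skeletal muscle RNA, and the part of the muscle RNA in them was not tested. The log2 fold change of Polg2 was 0.022 with a wide 95% interval, -0.32 to 0.37. Polg2 rested on 54 to 87 counts per library (counting error 10.7% to 13.6%), and its coefficient of variation was 19.0% in MFN2 and 10.7% in WT. Milr1, the gene that overlaps it, held between 2 and 13 counts.

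Tfam and Ssbp1, the proteins that coat the double and the displaced single strand of mtDNA, were lowest in library 43, within the limit of Dixon's test for an outlier among the 8 MFN2 values, and their values overlapped between genotypes. Tfam measured 33.7, 35.6, 38.4 and 34.6 CPM in WT. It measured 33.6, 37.4 and 26.5 CPM in MFN2 libraries 41 to 43, and 39.7, 38.4, 41.7, 34.4 and 34.5 CPM in 72 to 76. The value of library 43 was the lowest of the 12, and without it all MFN2 values lay between 33.6 and 41.7 CPM and overlapped WT. The log2 fold change between genotypes was 0.0074 (adjusted p = 0.976) with library 43 and 0.060 (SE 0.070, adjusted p = 0.643) without it. In the first run it was -0.12 with and 0.0053 without that library, and in the second run 0.083 (adjusted p = 0.419).

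Ssbp1 measured 16.8, 18.4, 18.6 and 17.4 CPM in WT and 18.4, 19.8 and 12.2 CPM in MFN2 libraries 41 to 43. In 72 to 76 it measured 16.6, 17.3, 18.3, 16.1 and 15.4 CPM, which overlapped WT. Library 43 was again the lowest and library 42 the highest of all. The log2 fold change between genotypes was -0.085 (adjusted p = 0.705), and -0.029 without library 43 (adjusted p = 0.855). Within the first run it turned from -0.067 to 0.11 when library 43 was left out. Across libraries, log2 CPM of Tfam and Ssbp1 correlated with r = 0.77 over 12 libraries and r = 0.31 over the 11 without library 43, so that the shared pattern rested largely on that library. These points share depth and scaling and are given as a description.

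Of the 3 genes of the deoxynucleotide supply, 0 passed the threshold in any of the 4 comparisons over all libraries. Tk2, the thymidine and deoxycytidine kinase of mitochondria, was the steadiest gene of the list, at 29.9 ± 1.43 CPM in WT and 29.5 ± 0.986 CPM in MFN2, with a coefficient of variation of 3.70% over all 12 libraries, close to its counting error of 3.51% to 4.24%. Its log2 fold change was -0.017 (95% interval -0.13 to 0.099). Dguok, the purine deoxynucleoside kinase, measured 10.3, 9.28, 10.1 and 9.44 CPM in WT and from 7.56 through 9.16 to 9.73 CPM in MFN2. Libraries 42 and 43 were lowest, and 6 of 8 MFN2 libraries lay below all WT values. Dguok had a log2 fold change of -0.16 (SE 0.089, adjusted p = 0.394), -0.13 without library 43, -0.22 within the first run and -0.12 in the second, none past the threshold, with 162 to 255 counts per library.

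Rrm2b, the small ribonucleotide reductase subunit used outside S phase, measured 35.5, 43.3, 39.1 and 42 CPM in WT. MFN2 libraries 41 to 43 held 42.9, 40.2 and 34.9 CPM and libraries 72 to 76 held 33.0, 36.2, 34.5, 35.6 and 39.6 CPM, so that the groups overlapped in every comparison over all libraries. Without library 43 the MFN2 runs did not overlap, libraries 41 and 42 being above all of 72 to 76. Of the 15509 genes tested there, 2562 were likewise lower in libraries 72 to 76 without overlap, so that this is common among all genes. The log2 fold change of Rrm2b against WT was -0.11 over all MFN2 mice (SE 0.081, adjusted p = 0.520), -0.0078 in the first run and -0.16 in the second (adjusted p = 0.113). The value of the first run turned to 0.066 when library 43 was left out. Leaving out WT library 44, the lowest WT value, took the second run to -0.21 and past the threshold (adjusted p = 0.0310). Between the MFN2 runs the value was -0.16 (adjusted p = 0.266), and -0.23 without library 43 (adjusted p = 0.0684).

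Ppargc1a, the coactivator of mitochondrial biogenesis, separated the runs of MFN2 mice without overlap, while its values overlapped between genotypes. WT libraries 44 to 47 held 91.4, 76.6, 78.2 and 73.6 CPM. MFN2 libraries 41 to 43 held 72.2, 76.1 and 73.5 CPM, and libraries 72 to 76 held 96.8, 86.9, 86.7, 93.4 and 88.5 CPM. All 5 values of the second run were above all 3 of the first, with WT library 44 among the second run's values and the other 3 WT libraries near the first run's. Between the runs the log2 fold change was 0.27 (SE 0.068, 95% interval 0.11 to 0.42, edgeR adjusted p = 0.0748), short of the threshold that 2.19% of the genes tested passed. Genes higher without overlap made up 9.74% there. Without library 43 the difference was 0.28 and passed (adjusted p = 0.0184), in a fit that called 2375 genes (15.3% of those tested) in place of 342. It also passed with DESeq2 (adjusted p = 0.00279) and with scaling by total count (0.0443), and the adjusted p lay between 0.00279 and 0.179 over all alternatives. Scaling by total count moved the calls of that comparison from 157 higher and 185 lower genes to 281 and 105.

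Against WT the coactivator had opposite signs in the runs. Its log2 fold change was -0.097 in the first run (SE 0.095, adjusted p = 0.708) and 0.18 in the second (SE 0.065, adjusted p = 0.0680), and 0.076 over all 8 MFN2 mice (adjusted p = 0.692). Leaving out each library once gave values between -0.13 and -0.023 in the first run. Without WT library 44 the second run passed the threshold at 0.25 (adjusted p = 0.00548), and it did with scaling by total count (0.24, adjusted p = 0.0259). Mfn2, which encodes the mouse protein, was lower in 4 of 5 libraries of the second run than in all 3 of the first (199 ± 9.60 and 218 ± 6.31 CPM, log2 fold change -0.16, adjusted p = 0.215). Between genotypes it did not separate, at 213 ± 15.1 CPM in WT and from 190 through 207 to 223 CPM in MFN2 (-0.047, adjusted p = 0.733). It is the mouse gene, so that its level does not check the genotype labels.

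**Figure D4:**
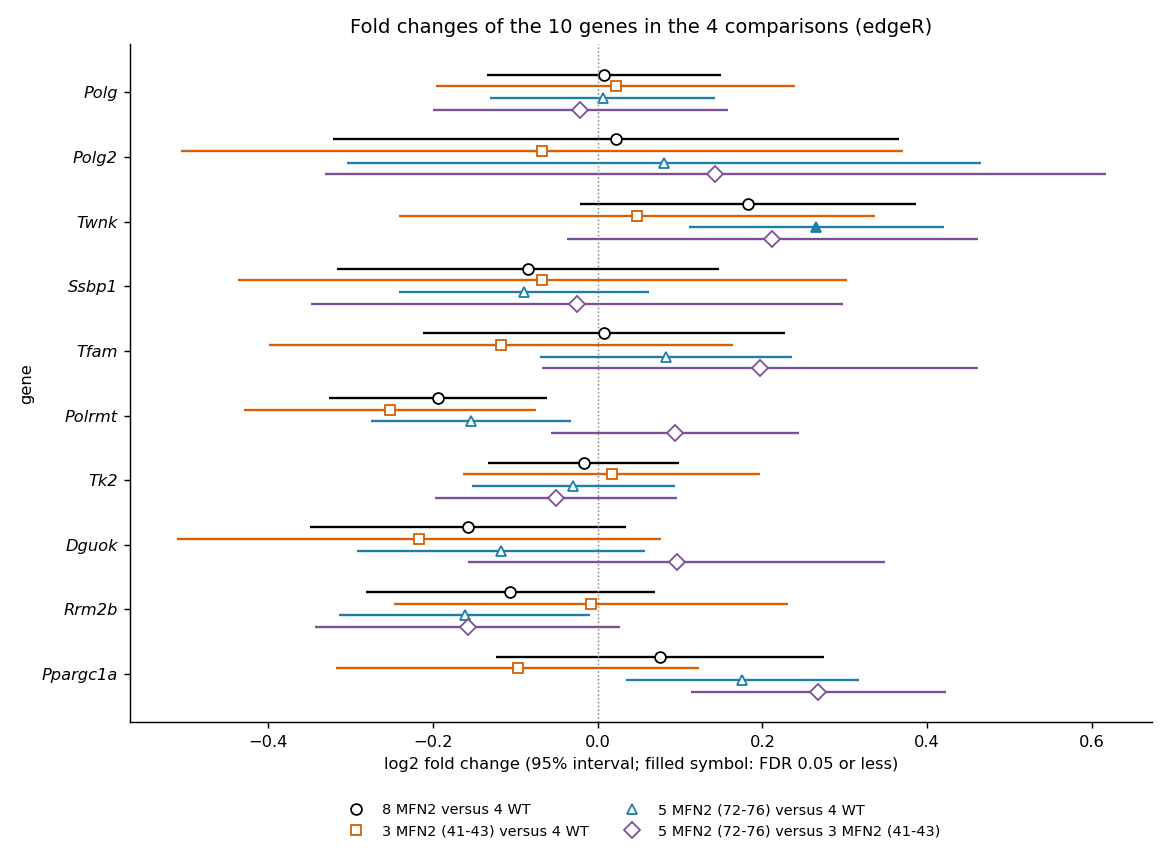
Log2 fold changes of the 10 genes with 95% intervals in 4 comparisons, of which the first 3 share the same 4 WT libraries. The single filled symbol is Twnk in libraries 72 to 76 against WT (0.27), and Polrmt lies below 0 in all 3 comparisons with WT.

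In the first run 0 of the 10 genes passed the threshold by edgeR, DESeq2 or limma-voom, in a comparison in which 1 of 15200 genes did by edgeR (0.00658%), 5 by DESeq2 and 0 by limma-voom, and 1 of the 10, Polrmt, had an unadjusted p under 0.05. Of the 10 genes, 7 were below 0 on the log2 scale there, with a median of -0.067 beside -0.0017 over all genes tested. Without library 43, 5 were below 0 and the median was -0.029. In the second run 5 were below 0, with a median of -0.012 beside -0.00066. For the second run against WT, 4 of the 10 had an unadjusted p under 0.05, 2 higher (Twnk and Ppargc1a) and 2 lower (Polrmt and Rrm2b), where 18.4% of all genes tested were higher and 19.4% lower at that level.

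Across the 12 libraries the 10 genes did not vary as a block. The strongest correlation of log2 CPM between a pair of them, apart from Tfam with Ssbp1, was negative, between Rrm2b and Ppargc1a (r = -0.71, and -0.89 over the 11 libraries without 43). Twnk and Ppargc1a had r = 0.61 (0.73 without 43), Polrmt and Dguok r = 0.58 (0.41 without 43), and Polg and Ppargc1a r = -0.046. Twnk had negative values with Rrm2b (-0.64, and -0.62 without 43) and with Ssbp1 (-0.59, and -0.78 without 43). That of Ssbp1 with Ppargc1a moved from -0.084 to -0.71 without 43. The genes with the pattern most like that of Tfam, by Pearson's r of log2 CPM over 12 libraries among 15941 others, were Asb8 (r = 0.93), Cct5 (0.93) and Rpap3 (0.93). Over the 11 libraries without 43 they were replaced by Zfp563 (0.89), Csnk2a2 (0.87) and Rapgef2 (0.87). Those of Polg were Zfp869 (0.91), Robo4 (0.88) and Hddc3 (0.85) over 12 libraries, and the same 3 came first over 11. For Rrm2b they were Nkd1 (0.97), Sh3bp5 (0.96) and Pea15a (0.95), and over 11 libraries Klhl4, Nkd1 and Pcsk6 (all 0.97). For Ppargc1a they were Rtel1 (0.93), Gm24339 (0.92) and Got2 (0.91), and over 11 libraries Jazf1 (0.97), Zik1 (0.96) and Zfp612 (0.95). These are the highest of many values over few libraries that share depth, run and genotype.

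Another 64 genes of the same pathways were measured beside the 10. They were 13 of replication and the nucleoid, 7 of mitochondrial transcription, 18 of the nucleotide supply, 6 of mtDNA repair and 20 regulators of biogenesis. Of the 64, 62 passed the filter, and Tymp (thymidine phosphorylase) and Nme4 (a mitochondrial nucleoside diphosphate kinase) did not, with 8 to 19 and 8 to 20 counts per library. Tk1, the thymidine kinase of dividing cells, was also under the filter in the first run and between the MFN2 runs, with 7 to 39 counts. Between genotypes 0 of the 62 passed the threshold by edgeR. At an unadjusted p under 0.05, Sirt1, a deacetylase that acts on PGC-1alpha, was higher (0.24), and Esrra (-0.32), Mpv17 (-0.27) and Ogg1, a glycosylase that removes oxidised guanine (-0.37), were lower, all with adjusted p-values between 0.278 and 0.294. These were 1 higher and 3 lower of 62, where 7.4% of all genes tested were higher and 7.57% lower at that level, so that the lists held no more than the background. The median log2 fold changes were -0.067 for replication and the nucleoid, 0.085 for transcription, -0.037 for nucleotide supply, 0.0064 for repair and 0.0093 for the regulators, beside 0.0038 over all genes tested. Without library 43 they were -0.0047, 0.070, 0.0071, 0.0011 and -0.0050 in the same order, beside -0.0022, so that those of nucleotide supply and of the regulators changed sign.

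In the first run 0 of 61 tested genes of these lists passed, and the median of the nucleotide supply list moved from -0.15 to 0.0068 without library 43. In the second run against WT 5 of 62 passed, 2 higher and 3 lower, below the share of all genes in each direction (11.1% higher and 12.7% lower). Esrra, the nuclear receptor ERRalpha through which PGC-1alpha acts, held 27.5, 32.7, 30.7 and 25.6 CPM in WT and 20.3, 23.1, 23.1, 24.9 and 22.3 CPM in libraries 72 to 76. The groups did not overlap, and the log2 fold change was -0.36 (SE 0.081, edgeR adjusted p = 0.00811). When libraries were scaled by total count alone, MFN2 library 75 came above WT library 47, so that the groups overlapped. Libraries 41 and 42 held 26.0 and 29.5 CPM, within the WT range, and library 43 held 18.1 CPM, the lowest of all. ERRalpha and its coactivator Ppargc1a thus had opposite signs in the second run. Mgme1, the exonuclease that trims replicated mtDNA ends, held 8.99, 9.47, 10.5 and 10.7 CPM in WT and 8.88, 5.37, 6.36, 6.85 and 6.98 CPM in libraries 72 to 76, without overlap (-0.53, SE 0.13, adjusted p = 0.0132). The gap between MFN2 library 72 and WT library 44 was small, and these 2 libraries changed order when scaled by total count alone. Mgme1 then overlapped between the groups. It was at 10.8 and 10.04 CPM in libraries 41 and 42 and at 4.93 CPM in library 43.

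The other 3 were Mpv17, an inner membrane protein whose loss depletes mtDNA, which fell from 10.9 ± 0.941 CPM in WT to 8.70 ± 0.778 CPM (-0.32, adjusted p = 0.0273), and the nuclease Exog and the nucleoid-associated ATPase Atad3a, which rose. Exog was at 27.2 ± 1.33 CPM in the second run and 23.0 ± 1.26 CPM in WT (0.24, adjusted p = 0.0173). Atad3a was at 34.1 ± 1.55 and 29.4 ± 2.13 CPM (0.21, adjusted p = 0.0303). All 5 libraries were above all WT libraries for both. MFN2 libraries 41 to 43 overlapped WT in all 3 genes, with 10.1, 8.02 and 10.5 CPM of Mpv17, 26.3, 22.3 and 21.1 CPM of Exog, and 31.3, 28.9 and 30.2 CPM of Atad3a. Between the MFN2 runs 0 of 61 passed, the lowest adjusted p being that of Slc25a36, a mitochondrial nucleotide carrier (0.33, adjusted p = 0.0726), and without library 43 3 passed, Slc25a36 (0.24, adjusted p = 0.0261), Mgme1 (-0.60, 0.0329) and Esrra (-0.30, 0.0479), of 61 tested in a fit that called 15.3% of all genes. The mtDNA copy number and the transcripts of mtDNA itself were not analysed here, so that none of these levels is tied to the amount of mtDNA.

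**Figure D5:**
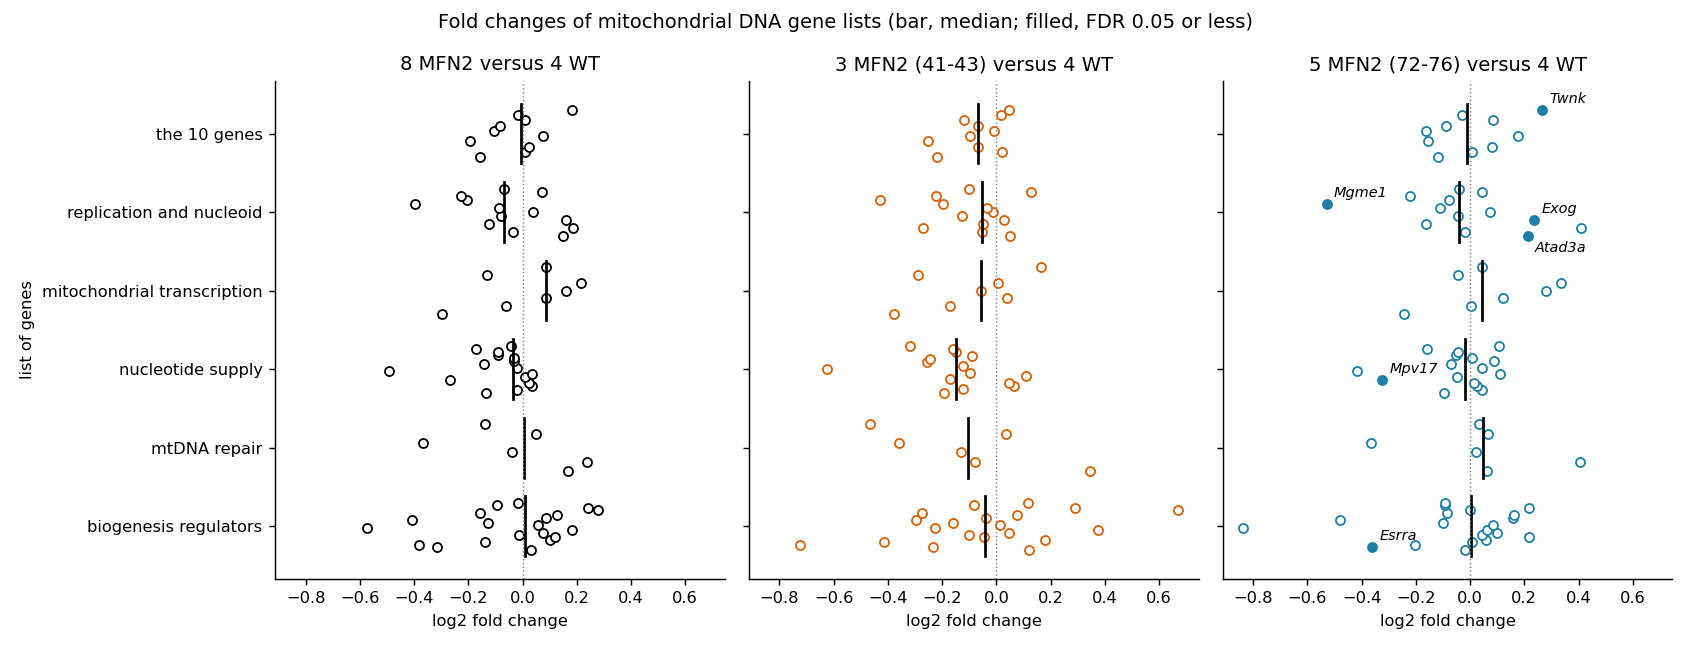
Log2 fold changes of the 10 genes and of 5 other lists (1 circle per gene, bar at the median of a list) for all MFN2, libraries 41 to 43 and libraries 72 to 76 against the same 4 WT libraries, on 1 horizontal scale. The 6 filled circles, all in the right panel, passed an FDR of 0.05, and the medians lie between -0.15 (nucleotide supply in libraries 41 to 43, which was 0.0068 without library 43) and 0.085.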

How the data were processed

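RNA of the spinal cord was analysed from 8 MFN2 and 4 WT mice, with 1 library per mouse. After trimming, the authors aligned the reads to GRCm38.p6 with STAR, and the counts they deposited, 1 whole number for each Ensembl gene, are not normalized. The submitters' processing notes name bcl2fastq, STAR and edgeR. The counting tool, its strand setting and the annotation release are not given in the sources used here. Columns of other series numbered 0. Genes of the mitochondrial genome and the human transgene were not analysed here, and the oligodendrocyte marker list is not reported here.

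Genes above 1 CPM in at least 3 of the libraries compared entered edgeR 4.0.16 under R 4.3.3, with TMM factors, the legacy quasi-likelihood test and its robust option, as the paper's methods name edgeR and an FDR of 0.05, with Benjamini-Hochberg adjustment over all genes tested. Standard errors came from the F statistic, and 95% intervals from these and the fit's degrees of freedom. Log2 CPM, used for correlations, had a prior count of 2. CPM used TMM-scaled sizes of all 12 libraries, and RPKM the union exon length in GENCODE M21. Promoter windows (250 bases before to 50 after each start) were RefSeq's on GRCm38.p6. The test was checked on simulated counts.

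The alternatives were no filter, edgeR's filterByExpr, library size without TMM, DESeq2 1.42.0, limma-voom (limma 3.58.1), a term for the run of numbers, and leaving out each library once. The 10 genes, the lists and the tests were chosen with earlier results of these data known. All 10 genes are named in every comparison. Of the other pathway lists, genes past the threshold against WT and those under the filter are named. Of the marker lists, the genes that set library 43 apart by Dixon's gap test are named. Marker genes past the threshold against WT are not named, among them 4 of 6 astrocyte and 5 of 6 microglia genes, lower in libraries 72 to 76. Genes called only at an unadjusted p, Slc25a36, and the genes that overlap one of the 10 were named outside this rule, after their values were seen. Total counts between 19359454 and 26738930 per library gave the 10 genes counting errors between 2.04% (Ppargc1a) and 13.6% (Polg2) in a library, for counting error only. P-values set a difference against the spread between the libraries of a group. Without a term for the run, the spread of all MFN2 libraries together also holds the difference between the runs and the departure of library 43. For libraries 72 to 76 against WT, the difference tested holds genotype and run together.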

Additional observations from a re-analysis of the deposited data

Results flagged for a closer look

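In MFN2 library 73 the CPM of Polg2 was far from the others of its genotype. Its gap to the next library was 0.6245 of the range of the 8 MFN2 values, above the limit of Dixon's test at the 95% level for a group of 8. It was 1 of 20 groups tested for the 10 genes (10 genes in 2 genotypes), and chance gives about 1 in 20. Of the 128 such groups of the 64 other pathway genes, 14 passed the limit, and in 11 of them the far library was library 43. The Polg2 value rested on 87 counts. Library 73 also held the highest sums of Schwann cell and blood genes, whose part in the value was not tested.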

How the results depend on the processing

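No paired analysis was run. The replicate numbers are the library numbers, which do not name pairs or litters of mice. Over the alternatives, the 10 log2 fold changes kept their direction and their side of the threshold in 160 values between genotypes, 98 in the first run, 116 in the second and 108 between the MFN2 runs, and changed sign in 20, 12, 7 and 9. No value that changed sign passed the threshold with either sign.

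Counts of genes past the threshold changed as follows. DESeq2 called 200 genes between genotypes in place of 0, 5 in the first run in place of 1, and 1795 between the MFN2 runs in place of 342. In the first run, limma-voom and the fit without a filter on low counts called 0. Of the 10 genes, the second run had 0 past the threshold without a filter and 2 with library size only (Twnk and Ppargc1a), in place of 1. Between the MFN2 runs, Ppargc1a made it 1 in place of 0 with library size only and with DESeq2. The cause was not tested. With each library left out in turn, the calls ranged from 0 to 19 between genotypes (19 without library 43, 7 without 41), from 0 to 2 in the first run, from 2350 (without WT 45) to 4517 (without WT 44) in the second, and from 31 (without 74) to 2375 (without 43) between the MFN2 runs, where leaving out 41, 72, 73, 75 or 76 left 34 to 85. Calls among the 10 ranged from 0 (without WT 45 or 46) to 4 (without WT 44) in the second run and from 0 to 1 (without 43) between the MFN2 runs.

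Log2 fold changes that turned sign were these. With library size only, Tk2 came to 0.034 between genotypes and 0.043 in the second run, and Polg, Ssbp1 and Tk2 to 0.053, 0.042 and 0.021 between the MFN2 runs. With limma-voom Tfam came to -0.0023 between genotypes, and without a filter Polg came to -0.0032 in the second run. With a term for the run, values between genotypes were -0.084 for Polg2, -0.13 for Tfam, 0.0012 for Tk2 and -0.11 for Ppargc1a. Leaving out each library once gave, between genotypes, -0.035 to 0.040 for Polg, -0.061 to 0.095 for Polg2, -0.027 to 0.060 for Tfam and -0.049 to 0.0014 for Tk2. In the first run it gave -0.026 to 0.080 for Polg, -0.14 to 0.036 for Polg2, -0.064 to 0.13 for Twnk, -0.23 to 0.0053 for Tfam, -0.20 to 0.11 for Ssbp1, -0.013 to 0.034 for Tk2 and -0.064 to 0.066 for Rrm2b. In the second run it gave -0.034 to 0.037 for Polg and -0.050 to 0.15 for Polg2, and between the MFN2 runs -0.056 to 0.019 for Polg and -0.20 to 0.11 for Ssbp1.

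Polg2, with 54 to 87 counts per library, was the gene whose depth limited it most, with a 95% interval of -0.32 to 0.37 between genotypes on the log2 scale.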
